A study of Mus musculus with 8 samples.

Results

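Gene expression was compared between mouse adult fibroblasts that had recurred after cisplatin with an intact Rb1 gene and the same kind of cells that had never met the drug, 4 of the 8 arrays of the series. The members were chosen by their labels alone: 2 arrays of recurred RB+p53DD MAFs (GFP Recurred) and 2 arrays of untreated RB+p53DD MAFs (GFP Naive). All of these cells came from mice whose Rb alleles carry loxP sites, were infected with an adenovirus that expresses GFP without Cre recombinase, and carry p53DD, a truncated p53 that acts as a dominant negative, delivered by a retrovirus and present in the controls as well. The recurred cells had been given cisplatin for 24 hours and had then regrown in medium without it, and the age of the mice is not given in the sources used here. The other 4 arrays, untreated and recurred RB-p53DD MAFs (Cre Naive and Cre Recurred), received Cre and so lost Rb. They entered the fit for its estimate of the spread and for 1 test of the difference between genotypes. Cells were selected and pooled after infection with the retrovirus, and each pair of arrays stands for 2 separately made populations. How many clones the recurred populations held is not given in the sources used here. An array was hybridised with RNA of a whole culture, so more cells that express a gene and more RNA per cell cannot be told apart.

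Cisplatin forms crosslinks between bases of DNA, which block replication and call on nucleotide excision repair, the Fanconi anaemia pathway and translesion polymerases. RB, the product of Rb1, holds E2F transcription factors inactive and so keeps cells out of S phase after damage, whereas p53 turns on genes of arrest and death, an arm that p53DD disables in these cells. Fibroblasts also shape their surroundings, through the collagens and glycoproteins of the matrix, the enzymes that cut it and the chemokines that call in leukocytes.

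Signals were log2 values on 45037 probe sets, which named 18193 genes. The median log2 signal lay between 5.37 and 5.41 on all 8 arrays. The GFP Naive arrays differed from each other at least 2-fold on 1437 probe sets, more than any GFP Naive array differed from a GFP Recurred array (872 to 1277), whereas the GFP Recurred arrays differed from each other on 198. Cre Naive replicate 1 lay closer to GFP Recurred replicate 1 (360 probe sets) and GFP Naive replicate 1 (447) than to Cre Naive replicate 2 (1600). Rb1 gave log2 signals of 7.98 and 8.07 on the GFP Naive arrays and 8.21 and 8.78 on the GFP Recurred arrays, all above the Cre arrays, where it lay between 4.98 and 6.21. Whether its probes lie in the deleted exon is not given in the sources used here. All 15 fibroblast markers had a mean log2 signal of 6 or more over the 8 arrays. Leukocyte markers were mixed: the pan-leukocyte marker Ptprc was dim (3.15 and 3.15 as means of the naive and the recurred arrays), whereas Cd14, a receptor for lipopolysaccharide, was bright and did not overlap between the groups (9.43 and 8.88 on the naive arrays, 9.81 and 9.84 on the recurred arrays). Csf1r and Lyz2, of macrophages, reached 8.19 and 6.92 on GFP Naive replicate 1 and overlapped between the groups. The 11 leukocyte genes summed to linear signals of 811 to 1284 and the 11 endothelial genes to 321 to 351, with Pecam1 at 3.56 and 3.62, against 71374 to 100003 for the fibroblast markers. The 9 skeletal myoblast markers summed to 329 and 742 on the naive arrays and 592 and 558 on the recurred arrays. Among the GFP arrays, Myf5, a factor that commits cells to muscle, stood out on GFP Naive replicate 2. It gave 5.29 there, against 2.59 on replicate 1 and 2.75 and 2.32 after recurrence. Chrna1, a subunit of the muscle acetylcholine receptor, did so too (7.06 against 4.98, then 4.95 and 5.00). On the Cre arrays Myf5 was low on Cre Naive replicate 1 (2.66). It was higher on Cre Naive replicate 2 (6.77) and on the Cre Recurred arrays (7.05 and 6.80). Chrna1 was likewise lowest of the Cre arrays on Cre Naive replicate 1 (4.28). Not every myoblast marker followed this order. Pax3, the brightest of them by its mean over the 8 arrays, gave 6.43 and 8.54 on the GFP Naive arrays and stayed at 8.43 and 8.19 after recurrence. On the Cre Naive arrays Pax3 gave 7.91 and 5.40, and on the Cre Recurred arrays 6.21 and 5.63. Myod1 gave 4.42 and 4.49 on the GFP Naive arrays and 4.41 and 4.71 on the GFP Recurred arrays. The part of these cell types in the results was not tested.

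After recurrence, Tnfrsf11b and Thsd4 rose and Gata2 and Mbnl3 fell, and these were the named genes with a probe set past the study's thresholds of 1.5-fold and an adjusted p under 0.25 (limma, Benjamini-Hochberg over all probe sets). In all 6 probe sets passed, 4 higher (0.00888% of those tested) and 2 lower (0.00444%), of which 2 of the higher ones have no gene name. None passed an adjusted p under 0.05, although 2485 had an unadjusted p under 0.05. With a SAM-type statistic, the kind of test used by the study, 255 probe sets were higher (0.566%) and 209 lower (0.464%) at the same thresholds. Under 0.05 it was 22. For this statistic the adjusted p is a false discovery rate estimated from the few splits of the 4 GFP arrays into pairs. The true split is among them, so this rate is coarse.

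Tnfrsf11b encodes osteoprotegerin, a secreted decoy receptor that keeps the cytokine RANKL from its receptor RANK. Its log2 signal was 5.41 and 4.97 on the GFP Naive arrays and 7.40 and 7.76 on the GFP Recurred arrays. The groups did not overlap, and the log2 difference was 2.39 (standard error 0.23, n = 2 arrays a group, adjusted p = 0.168 from limma), or 5.24-fold. A second, dimmer probe set of the gene differed by 0.61 (adjusted p = 0.871). Thsd4 encodes an ADAMTS-like protein that binds fibrillin microfibrils. Its signal was 4.55 and 4.35 on the naive arrays and 6.59 and 6.43 on the recurred arrays, a log2 difference of 2.06 (standard error 0.18, adjusted p = 0.168), or 4.16-fold. Its naive values lay below the array median of 5.4 and its recurred values above, while a second probe set of the gene stayed below and differed by -0.02.

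Gata2, a zinc finger transcription factor best known from blood progenitors and endothelium, gave 8.99 and 8.82 on the naive arrays and 7.70 and 7.51 on the recurred arrays. It fell by 1.30 on the log2 scale (standard error 0.13, adjusted p = 0.210), and its second probe set had a similar difference of -1.35 (adjusted p = 0.341). Mbnl3, a muscleblind-like regulator of alternative splicing, gave 8.01 and 7.91 against 6.51 and 6.30, and fell by 1.55 (standard error 0.15, adjusted p = 0.168). Its other probe sets had log2 differences of -1.45 and -0.60. In each of these genes both recurred arrays lay on one side of both naive arrays, with a gap several times the distance within either pair. The test that chose these genes favours such gaps, so this describes the choice and adds no support. Of the probe sets without a gene name, the dimmer had 3.99 and 3.87 against 6.84 and 6.25 (log2 difference 2.62, adjusted p = 0.132), and the brighter had 6.22 and 5.96 against 8.47 and 8.76 (log2 difference 2.53, adjusted p = 0.210).

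The calls rested on few arrays, and none passed when only probe sets brighter than the median were tested. Without GFP Naive replicate 1, 4 probe sets passed, none of them among these 6, and without GFP Naive replicate 2 the count was 172, with 14 higher and 158 lower. Without GFP Recurred replicate 1 or 2 it was 3 or 1, and Tnfrsf11b, Thsd4, Gata2 and Mbnl3 had adjusted p values of 0.881 and 1. Without either Cre Recurred array Tnfrsf11b (adjusted p = 0.369) and Gata2 (adjusted p = 0.476) no longer passed, and both Cre Naive arrays moved the count to 23 when left out singly.

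**Figure D1:**
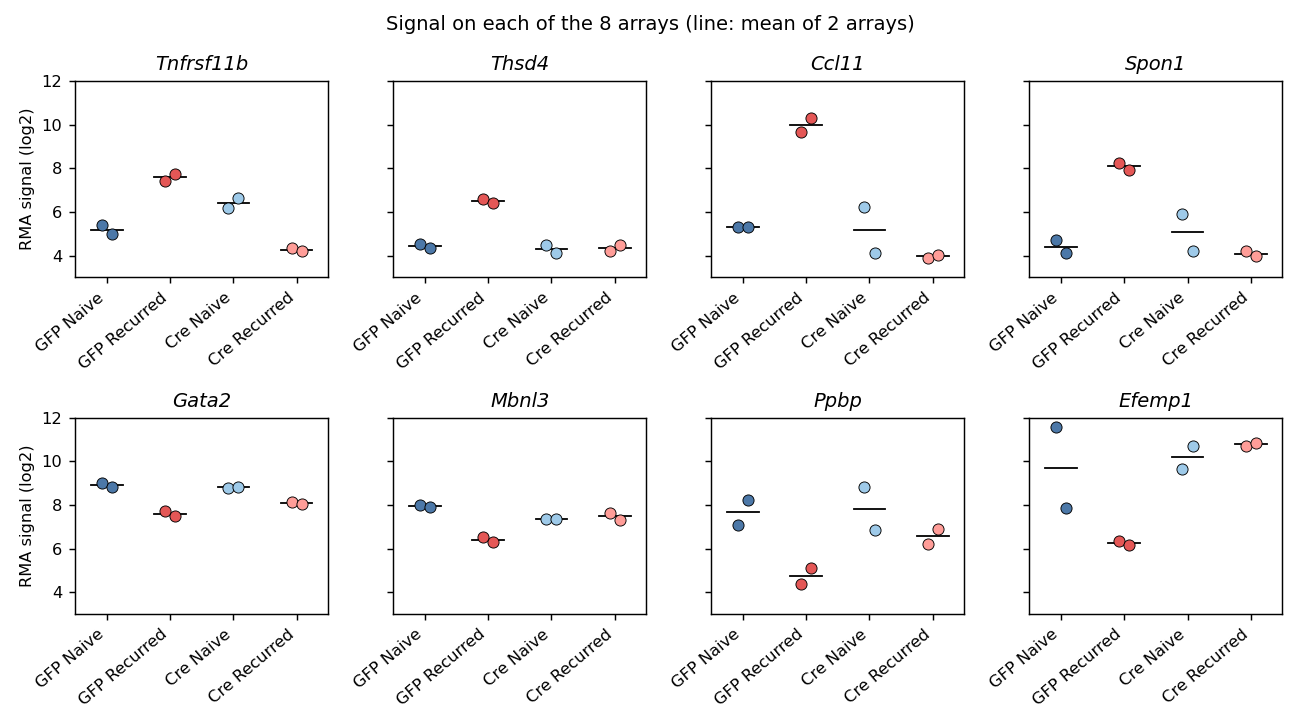
RMA signal (log2) on each of the 8 arrays for Tnfrsf11b, Thsd4, Ccl11, Spon1, Gata2, Mbnl3, Ppbp and Efemp1; points are arrays and lines the mean of 2 arrays in a group. The GFP Recurred points of Tnfrsf11b (7.40 and 7.76) lie above both GFP Naive points (5.41 and 4.97), and the naive arrays of Efemp1 (11.59 and 7.84) lie far apart.

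The sequence just before the start of transcription is shown for the called genes that the promoter table holds and, because Ccl8 and its neighbour Ccl12 behaved differently, for that pair of chemokine genes. Each line gives 250 bases of RefSeq (GRCm38.p6), 5' to 3' on the strand of the gene, ending at the last base before the annotated start. For Thsd4, on the minus strand, 1 of 2 annotated starts is shown (chr9:60511036-60511285). Both starts of Gata2 are shown (plus strand, chr6:88193641-88193890 and chr6:88198414-88198663), with Mbnl3 (minus strand, chrX:51205991-51206240), Ccl8 (plus strand, chr11:82114935-82115184) and Ccl12 (plus strand, chr11:82101595-82101844). Capitals mark every match on either strand to 6 motifs: the TATA box TATAAA, the CCAAT box CCAAT, the GATA motif AGATAA, the AP-1 motif TGANTCA, the interferon-stimulated response element and the NF-kB motif.
Thsd4: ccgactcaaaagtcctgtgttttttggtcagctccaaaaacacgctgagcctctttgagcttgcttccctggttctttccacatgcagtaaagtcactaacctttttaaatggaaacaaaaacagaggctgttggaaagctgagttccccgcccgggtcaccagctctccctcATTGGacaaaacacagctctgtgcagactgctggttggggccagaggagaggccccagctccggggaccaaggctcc
Gata2, first start: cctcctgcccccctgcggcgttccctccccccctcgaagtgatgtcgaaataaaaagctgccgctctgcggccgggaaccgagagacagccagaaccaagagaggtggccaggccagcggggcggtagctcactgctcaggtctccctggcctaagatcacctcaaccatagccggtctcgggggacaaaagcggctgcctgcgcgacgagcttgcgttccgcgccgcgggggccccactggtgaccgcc
Gata2, second start: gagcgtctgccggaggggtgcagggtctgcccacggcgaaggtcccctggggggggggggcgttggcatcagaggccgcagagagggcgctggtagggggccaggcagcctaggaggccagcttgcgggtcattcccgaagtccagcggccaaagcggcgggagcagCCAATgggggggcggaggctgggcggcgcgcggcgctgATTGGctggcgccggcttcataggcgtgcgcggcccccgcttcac
Mbnl3: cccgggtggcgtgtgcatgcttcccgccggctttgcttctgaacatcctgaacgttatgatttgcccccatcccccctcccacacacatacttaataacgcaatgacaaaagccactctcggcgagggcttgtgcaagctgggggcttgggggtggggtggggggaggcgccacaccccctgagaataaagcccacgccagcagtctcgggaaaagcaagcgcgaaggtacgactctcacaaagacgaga
Ccl8: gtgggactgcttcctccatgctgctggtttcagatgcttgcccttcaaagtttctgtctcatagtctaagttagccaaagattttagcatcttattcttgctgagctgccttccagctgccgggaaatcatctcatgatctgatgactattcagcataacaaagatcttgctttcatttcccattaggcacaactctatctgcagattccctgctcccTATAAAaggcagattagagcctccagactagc
Ccl12: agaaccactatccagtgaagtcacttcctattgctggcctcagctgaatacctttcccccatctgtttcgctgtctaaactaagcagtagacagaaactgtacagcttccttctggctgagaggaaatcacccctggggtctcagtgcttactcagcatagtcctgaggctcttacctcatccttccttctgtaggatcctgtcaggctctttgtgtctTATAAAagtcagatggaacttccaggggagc
The 2 genes that fell and have a promoter here are rich in CpG. The Gata2 windows hold 22 and 24 CpG and that of Mbnl3 15, against a median of 6 over 32851 windows of this length, while Thsd4 holds 5 and each of the chemokine genes 1. Ccl8 and Ccl12 have TATAAA from base -32 to -27 and from -31 to -26 before the start, which 12.4% of all windows hold anywhere. The capitals of Thsd4 and of the second start of Gata2 are CCAAT matches, held by 33.8% of windows. No window shown holds AGATAA (9.99% of windows do), TGANTCA (6.75%), an interferon-stimulated response element (2.98%) or an NF-kB motif (4.11%).

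Ccl11 encodes eotaxin, a chemokine that attracts eosinophils. Its log2 signal was 5.31 and 5.32 on the GFP Naive arrays and 9.65 and 10.32 on the GFP Recurred arrays. This was the highest log2 difference of all probe sets, 4.67 (standard error 0.59, adjusted p = 0.341 from limma), or 25.4-fold, and it missed the threshold. Ccl11 lies in a cluster of chemokine genes on chromosome 11, with Ccl2, Ccl7, Ccl12 and Ccl8 between positions 82035577 and 82116799 of GRCm38.p6. Ccl8, which attracts monocytes and other leukocytes, was next highest in the cluster, at 8.50 and 8.83 against 10.40 and 10.92 (log2 difference 2.00, standard error 0.53, adjusted p = 0.862). Its neighbours Ccl2 and Ccl7, also chemokines for monocytes, had log2 differences of -0.05 and -0.23, and Ccl12, dim on every GFP array, had -0.15. Spon1, or F-spondin, a secreted matrix protein that guides axons, gave 4.70 and 4.09 against 8.25 and 7.93 (log2 difference 3.69, standard error 0.51, adjusted p = 0.439).

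The rule that named the next genes took the 15 highest and the 15 lowest log2 differences among genes whose arrays did not overlap and whose brighter group had a mean of 6 or more, so what follows describes the choice and tests nothing. After Ccl11 and Spon1 came Sbspon, a secreted protein with a thrombospondin repeat (6.71 and 6.50 against 10.45 and 9.61, log2 difference 3.42). Further secreted or surface proteins were Chl1, an adhesion molecule of the L1 family (8.02 and 6.80 against 10.34 and 10.26), Egfl6, a matrix protein with EGF repeats (6.68 and 4.66 against 8.03 and 8.70), and Lrrc15, a membrane protein of activated fibroblasts (6.13 and 6.30 against 8.39 and 9.43). Fgf23, a hormone that lowers blood phosphate, gave 5.85 and 4.24 against 7.84 and 7.33. Transcription factors among the highest were Dmrt2, of the doublesex family, with 3.08, and Osr2, of the odd-skipped family, with 2.53. For these 15 genes the median distance between the naive arrays was 0.79 and that between the recurred arrays 0.51 on the log2 scale.

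The lowest genes depended more on 1 naive array. Efemp1, or fibulin-3, a glycoprotein of elastic fibres and basement membranes, had the lowest log2 difference of all, -3.46 (standard error 1.04, adjusted p = 0.871), with naive values of 11.59 and 7.84 and recurred values of 6.37 and 6.15. Without GFP Naive replicate 1, the array on which it was brighter, the log2 difference was -1.58. Ppbp, a platelet chemokine, gave 7.07 and 8.24 against 4.40 and 5.10 (log2 difference -2.91). Serpinb2, an inhibitor of plasminogen activators, gave 9.55 and 7.59 against 5.29 and 6.55, and Gpx3, a secreted glutathione peroxidase, 9.88 and 6.08 against 5.42 and 5.27. These genes separated the groups, but in Efemp1, Serpinb2 and Gpx3 the gap between the groups was smaller than the distance between the naive arrays.

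Others among the lowest were the developmental transcription regulators Foxc2 (-2.59) and Eya1 (-2.14), the adhesion proteins Selp (P-selectin, -2.42) and Ctnnd2 (delta-catenin, -2.40), the sodium pump subunit Atp1b1 (-2.34), the chemokine Cxcl2 (-2.09) and the water channel Aqp1 (-2.07). Ctnnd2 had the closest arrays of these, with 6.59 and 6.40 against 4.17 and 4.02. In 13 of the 15 lowest genes GFP Naive replicate 1 lay above replicate 2, and the median distance between the naive arrays was 1.84, against 0.55 between the recurred arrays.

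**Figure D2:**
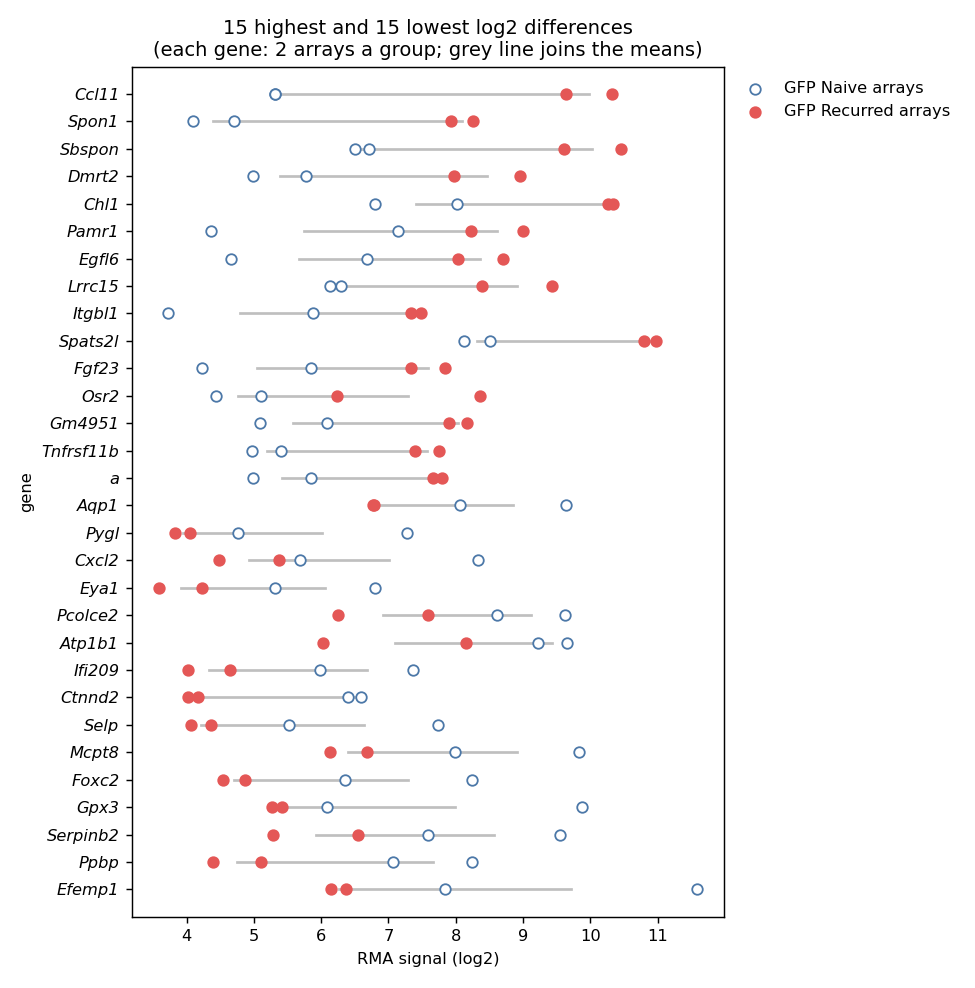
RMA signal (log2) of the 15 genes with the highest and the 15 with the lowest log2 difference; open circles are the 2 GFP Naive arrays, filled circles the 2 GFP Recurred arrays and the grey line joins the means. The open circles lie further apart in the lower part of the plot (median distance 1.84) than in the upper part (0.79).

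A wider view takes the genes whose group means differ at least 1.5-fold and whose arrays do not overlap, called separated from here on. Of all genes 358 were separated and higher (1.97%) and 382 separated and lower (2.1%), together 4.07%, and 52.8% had a positive log2 difference, with a median of 0.01. The counts of lists below stand beside these values. At gene level, where each gene stands by its brightest probe set, 2 genes rose (0.011%) and 1 fell (0.0055%) at the study's thresholds. Unless a member is named as rising or falling, none passed the test.

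Matrix genes were mostly higher after recurrence. Of 35 collagen genes 28 had a positive log2 difference (median 0.22), 7 were separated and higher and 1 lower. Col6a3, a chain of the pericellular collagen VI, gave 11.21 and 11.41 against 12.08 and 12.33 (log2 difference 0.90, standard error 0.29). Col1a1, the main chain of fibrillar collagen I, gave 12.28 and 12.30 against 12.85 and 13.45, a difference of 0.86. Col8a1, of the short-chain collagen VIII, ran the other way, with 11.23 and 10.43 against 9.47 and 9.40 (log2 difference -1.39).

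Of 15 small leucine-rich proteoglycans, which bind collagen fibrils and set their width, 13 were positive (median 0.33) and 3 separated and higher. They included Lum, lumican, at 12.23 and 11.06 against 12.86 and 13.13 (log2 difference 1.34), and Omd, osteomodulin, with 0.77. Of 36 matrix glycoproteins 28 were positive (median 0.18), with 8 separated and higher and 2 lower. Spon1 led them, followed by Cthrc1, a secreted protein of collagen-producing fibroblasts, at 7.26 and 5.50 against 8.11 and 8.82 (log2 difference 2.08), and Matn2, a matrilin of matrix filaments, had 0.89.

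Enzymes that cut the matrix went in both directions, with 4 of 28 metalloproteinases and inhibitors separated and higher and 4 lower (median 0.13). Mmp10, stromelysin 2, gave 7.73 and 8.02 against 8.97 and 9.45 (log2 difference 1.34), and Mmp2, gelatinase A, gave 11.75 and 11.86 against 12.91 and 12.90 (1.10). Of the proteases that cleave aggrecan, Adamts1 gave 9.54 and 8.74 against 8.01 and 7.32 (log2 difference -1.47), Adamts4 gave 7.99 and 7.92 against 8.25 and 8.45 (0.39), and Adamts5 gave 11.55 and 10.27 against 9.47 and 9.29 (-1.53).

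Among 28 genes of microfibrils and elastic fibres, 1, Thsd4, rose, and 4 were separated and higher and 3 lower (median 0.15). The lower ones were Efemp1, the lysyl oxidase Loxl4, which crosslinks collagen and elastin (7.31 and 6.99 against 6.08 and 6.35, log2 difference -0.93), and the ADAMTS-like Adamtsl3 (-0.69). Among 26 genes of the TNF receptor system 1, Tnfrsf11b, rose, and the median was 0.03 (-0.01 with cyclic loess and -0.04 without dim genes). Tnfsf11, which encodes RANKL, the ligand that osteoprotegerin binds, gave 5.86 and 3.68 against 5.27 and 6.40, and its receptor Tnfrsf11a (RANK) had a log2 difference of 0.55. In neither did the groups separate. The death domain receptor Tnfrsf21 gave 5.45 and 6.06 against 7.11 and 7.66 (log2 difference 1.63), and the costimulatory receptor Tnfrsf9, or 4-1BB, gave 7.63 and 8.56 against 9.40 and 9.93 (1.57).

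Of 17 GATA factors and their partners 1, Gata2, fell. Other family members differed in sign: Gata4, a factor of heart and gonad, gave 4.78 and 5.06 against 6.10 and 6.01 (log2 difference 1.13), and Gata6, of heart and gut, gave 7.89 and 7.38 against 7.08 and 6.81 (-0.69). Of 32 splicing regulators none was separated and higher and 3 lower: Mbnl3 and the CELF proteins Celf2 and Celf4, which often act on the exons that muscleblind proteins also bind. Celf2 gave 10.02 and 9.74 against 9.05 and 8.75 (log2 difference -0.98, standard error 0.20, adjusted p = 0.735). For the gene-level count Mbnl3 stands by its brightest probe set, which did not pass.

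Secreted inflammatory factors were split, with 5 of 37 separated and higher and 5 lower (median 0.14, but -0.08 without GFP Naive replicate 1 and -0.08 without GFP Recurred replicate 2). The higher ones included Ccl11, Ccl8 and Hgf, the hepatocyte growth factor (7.30 and 6.44 against 8.15 and 8.18), and the lower ones Cxcl2, Cxcl1 and the colony stimulating factor Csf2 (5.94 and 5.73 against 5.03 and 5.16, log2 difference -0.74). Of 43 interferon response genes 38 were positive (median 0.31), 5 were separated and higher and none lower. Oas1a, a sensor of double-stranded RNA, gave 9.02 and 8.73 against 9.58 and 10.41 (log2 difference 1.12), and Zbp1, a sensor of Z-form nucleic acids, 6.75 and 5.81 against 6.93 and 8.52. The list also differed between the naive arrays, replicate 2 minus replicate 1 having a median of -0.71, and the median was -0.37 for GFP Recurred replicate 1 against GFP Naive replicate 1 and 1.06 for replicate 2 against replicate 2. Without GFP Naive replicate 2 the list's median was -0.01.

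The insulin-like growth factors were among the most divided lists, with 5 of 14 genes separated, 35.7% against 4.07% of all genes. The ligands Igf2, at 8.95 and 7.17 against 10.24 and 10.35 (log2 difference 2.23), and Igf1, at 7.36 and 7.01 against 8.84 and 8.57 (1.52), were higher. So were the binding proteins Igfbp4, at 11.11 and 10.54 against 12.46 and 12.83 (1.83), and Igfbp3 (1.76), which hold the ligands outside the cell. Irs1, the docking protein inside the cell on which their receptor signals, was lower, at 10.04 and 10.23 against 9.39 and 9.07 (-0.90).

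Proliferation and damage response genes differed little. None of 36 G1/S targets of E2F, 31 mitotic genes, 13 pocket protein and E2F genes or 15 D cyclin, kinase and inhibitor genes was separated, and their medians were -0.09, -0.10, -0.11 and -0.14. The median of the pocket protein and E2F genes was 0.03 without GFP Naive replicate 2 and 0.0042 without GFP Recurred replicate 1. Pcna, the sliding clamp of replication, gave 12.88 and 13.00 against 12.84 and 12.89, Mcm7, of the replicative helicase, had a log2 difference of 0.10, and Ccna2, cyclin A2, -0.03. Ccnd1, cyclin D1, gave 11.30 and 11.46 against 11.03 and 10.90 (log2 difference -0.41, adjusted p = 0.872). Rb1 had a log2 difference of 0.47 (adjusted p = 0.871).

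Of 31 targets of p53, 13 were positive (median -0.14) and 2 separated and lower, Ccng1, cyclin G1, with -0.61, and Eda2r, a TNF family receptor, with -0.75. The arrest gene Cdkn1a, or p21, overlapped, with 9.09 and 10.11 against 8.66 and 9.45. Of 42 genes of crosslink repair, excision repair and translesion synthesis 15 were positive (median -0.06) and none was separated. The lowest unadjusted p values among them belonged to members of the Fanconi anaemia pathway. Fancm, which anchors its core complex to DNA, gave 7.30 and 7.06 against 6.70 and 6.68 (log2 difference -0.49), Fancl, its ubiquitin ligase, had -0.49, and the core members Fanca and Fancb had -0.37 and -0.56.

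Among 29 ABC transporters, pumps of drugs and lipids, 1 was separated and higher, Abca3 (0.65), and 2 lower. The paired multidrug transporters Abcb1a, at 5.19 and 4.03 against 3.65 and 3.68, and Abcb1b, at 9.28 and 9.22 against 8.82 and 8.46, were the lower ones (log2 differences -0.95 and -0.61). Among 33 platinum uptake, metallothionein and glutathione genes 2 were separated and lower, Gpx3 and the quinone reductase Nqo1 (-0.74). In the Bcl2 family the death-promoting Bmf was separated and higher, at 5.77 and 4.87 against 6.43 and 6.78 (log2 difference 1.29). The survival gene Bcl2 (7.73 and 7.48 against 6.80 and 7.11) and the death-promoting Bid were separated and lower, with -0.65 and -0.64.

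Further lists with medians away from 0 moved in part with single arrays. Of 20 genes of cholesterol synthesis 19 were positive (median 0.30), with medians of 0.41 and 0.49 for GFP Recurred replicate 1 against the naive arrays and -0.0047 and 0.11 for replicate 2. Sqle, squalene epoxidase, gave 11.16 and 10.97 against 11.60 and 11.53. Of 20 unfolded protein response genes 17 were positive (median 0.18), as were 23 of 28 genes of the contractile cytoskeleton (0.19), while 6 of 24 genes of glycolysis and hypoxia were (-0.15, but 0.04 without GFP Naive replicate 2). Of 33 Hox genes, which record position along the body, 1 was separated and higher, Hoxa10 (8.64 and 9.24 against 10.07 and 9.97), and 4 lower, among them Hoxc13 (6.09 and 5.80 against 5.23 and 4.98). Among Wnt antagonists the frizzled-related Sfrp1 gave 12.28 and 12.03 against 13.02 and 13.20 (log2 difference 0.95) and Dkk3 9.36 and 9.69 against 10.54 and 10.47 (0.98). Sfrp2 overlapped, with 10.82 and 10.15 against 10.27 and 10.04.

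**Figure D3:**
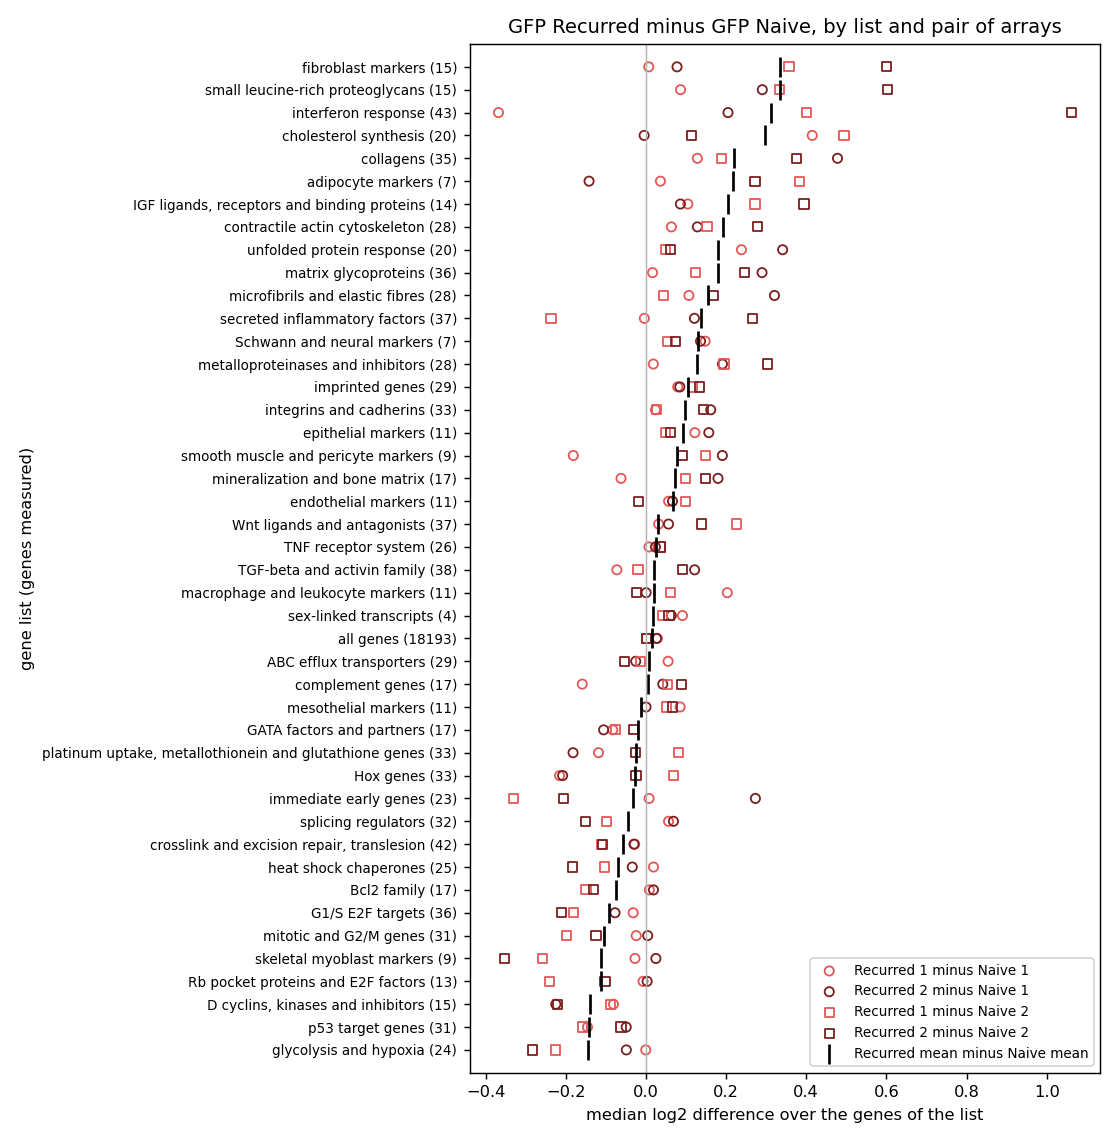
Median log2 difference over the genes of each of 43 lists and of all genes, for the 4 pairs of a GFP Recurred and a GFP Naive array (circles and squares) and for the means (bars). The interferon response spans the widest range, -0.37 to 1.06, and the median of all genes lies at 0.01.

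The differences were not spread evenly over the chromosomes. Over genes with a mean log2 signal of 6 or more, the median was -0.23 on chromosome 12 (358 genes), and it was -0.27 and -0.18 on GFP Recurred replicates 1 and 2 relative to the naive mean. On this chromosome 30 genes were separated and lower and 5 higher, 9.78% in all against 5.21% of the 10178 such genes. The next lowest median was -0.14, on chromosome 10, and the highest 0.13, on chromosome 15, where Tnfrsf11b lies. The naive arrays differed from each other by -0.10 on chromosome 12 but by 0.29 on chromosome 6 and -0.28 on chromosome 10. Whether DNA copy number moved with these values was not tested, since these arrays measured RNA.

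**Figure D4:**
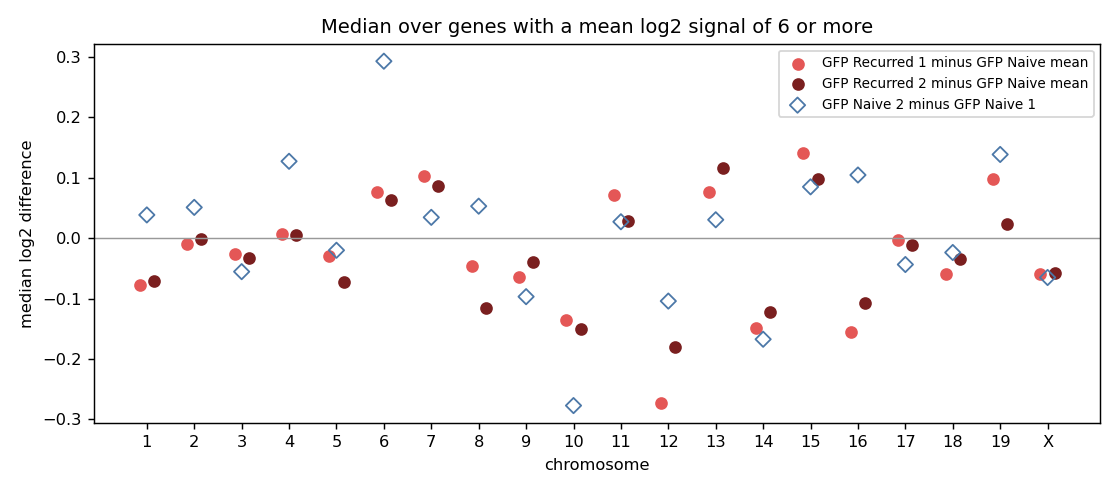
Median log2 difference per chromosome over genes with a mean log2 signal of 6 or more: filled circles are each GFP Recurred array minus the GFP Naive mean, open diamonds GFP Naive replicate 2 minus replicate 1. Chromosome 12 is lowest on both recurred arrays (-0.27 and -0.18), and chromosomes 6 and 10 differ most between the naive arrays (0.29 and -0.28).

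The recurrence difference of the RB-deficient cells was set against that of the RB-proficient cells in an interaction test. The groups compared also differ in the cell populations they hold, and RB status was not tested apart from these. At the study's thresholds 180 probe sets passed this interaction (0.4%), and none had an adjusted p under 0.05. No probe set had a smaller adjusted p than that of Tnfrsf11b. This gene gave 6.17 and 6.62 on the Cre Naive arrays and 4.35 and 4.19 on the Cre Recurred arrays. Its log2 difference was -2.12, against 2.39 with RB (interaction -4.51, adjusted p = 0.0557 from limma). Thsd4 gave 4.50 and 4.13 against 4.22 and 4.49 without RB, and the interaction was -2.02 (adjusted p = 0.172). Mbnl3 gave 7.37 and 7.34 against 7.62 and 7.33 (interaction 1.67, adjusted p = 0.172). Gata2 did not pass, with 8.78 and 8.84 against 8.13 and 8.02, a log2 difference of -0.73 and an interaction of 0.57 (adjusted p = 0.402).

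Ccl11 and Spon1 passed, with interactions of -5.87 (adjusted p = 0.175) and -4.67 (adjusted p = 0.190). In the RB-deficient cells Ccl11 gave 6.21 and 4.14 against 3.90 and 4.04, and Spon1 5.93 and 4.19 against 4.19 and 3.98. Of the 15 highest genes all 15 had a negative log2 difference without RB, with a median of -2.12. Of the 15 lowest 11 had a positive one, with a median of 0.64. Recurrence without RB leaned downward over all probe sets, with 2385 at least 1.5-fold lower and 1089 higher. The share of all genes with either sign was not counted, so the 15 and 11 have no like background. The interaction of these genes shares the GFP arrays on which they were chosen, and the Cre Naive arrays lay far apart in many of them, as in Chl1 (10.71 and 5.85 against 3.05 and 2.67). No probe set passed the interaction when either GFP Recurred array, or the first of the Cre Recurred arrays, was left out. Without GFP Naive replicate 1 the count was 15, without GFP Naive replicate 2 it was 371, without Cre Naive replicate 2 1611 and without Cre Recurred replicate 2 2953.

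**Figure D5:**
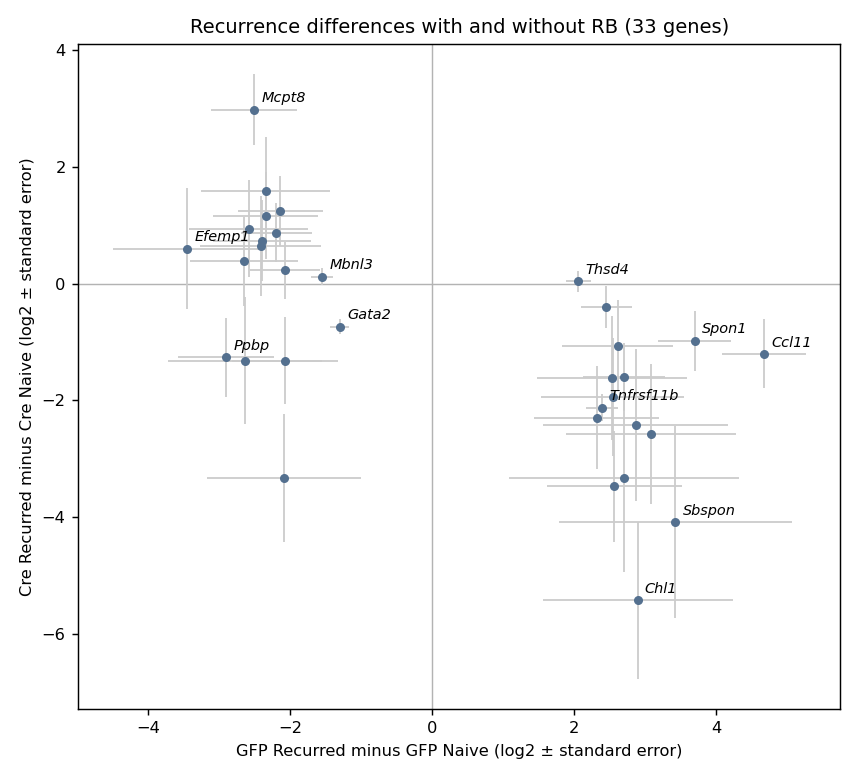
Log2 difference of recurred and naive cells with RB (x axis) and without RB (y axis), each with its standard error, for the 33 genes of the called probe sets and of the highest and lowest differences. Tnfrsf11b lies at 2.39 and -2.12, Thsd4 at 2.06 and 0.04, and the bars of genes such as Chl1 are long.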

How the data were processed

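RNA of 8 cultures was measured on Affymetrix mouse expression arrays, 1 array a culture. The deposited values are log2 signals that the authors made with RMA, which subtracts background, sets all arrays to the same distribution and summarises the probes of a set, so global shifts in RNA amount are removed. The authors then used SAM with 1.5-fold and a false discovery rate of 25%. Here 64 control probe sets were left out and 45037 tested with limma 3.58.1 in R 4.3.3 (Python 3.11.15 for tables), on all 8 arrays with 1 mean per group, and p-values were adjusted by Benjamini-Hochberg. The steps were tested on simulated data. Of the probe sets 34945 had 1 gene symbol in GEO's platform annotation, 932 several and 9160 none. For counts over genes, each of 18193 genes stands by its brightest probe set. With 2 arrays against 2, an exact permutation test cannot give a p below 0.333, so none was run on single genes. The number of arrays limits the precision.

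The rule for naming took genes past the thresholds, the 15 highest and 15 lowest separated genes, and up to 4 genes of each of 43 lists by smallest unadjusted p. It also took the genes the study names for its cells. These parts of the rule gave 202 genes. The text names only some of the 202, and the rule did not set which. Outside this rule, Ccl2, Ccl7, Ccl12, Tnfsf11, Celf4, Cxcl1, Igfbp3, Abca3, Adamts4, Ptprc and Pecam1 were named after their values were seen. Members and lists were chosen with earlier results of these data known. The 16 alternatives were a SAM-type statistic, the 4 GFP arrays alone, a replicate block, a trended and robust prior, array weights, cyclic loess, removal of dim or of _s_at and _x_at probe sets, and leaving out each array.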

Additional observations from a re-analysis of the deposited data

Results flagged for a closer look

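Of 103 named genes and probe sets, 12 genes and 1 unnamed probe set passed the interaction test (limma) at the study's thresholds. Over all probe sets 0.4% passed. Many were named for their differences on the GFP arrays, which enter this test, so the count is no independent support. The interaction is the recurrence difference in RB-deficient cells minus that in RB-proficient cells. It was negative, so that the difference was lower without RB, for Lum (-7.65, adjusted p = 0.228), Sfrp1 (-6.71, adjusted p = 0.172), Ccl11 (-5.87, adjusted p = 0.175), Spon1 (-4.67, adjusted p = 0.190), Tnfrsf11b (-4.51, adjusted p = 0.0557), the dimmer unnamed probe set (-2.25, adjusted p = 0.172) and Thsd4 (-2.02, adjusted p = 0.172). It was positive for Mcpt8, named mast cell protease 8 (5.49, adjusted p = 0.192), Loxl4 (2.15, adjusted p = 0.239) and Mbnl3 (1.67, adjusted p = 0.172). The same held for Bcl2 (1.67, adjusted p = 0.242), Celf2 (1.59, adjusted p = 0.239) and Fanca (1.20, adjusted p = 0.222). The Cre Naive arrays lay apart in Lum (13.15 and 10.35), Sfrp1 (12.81 and 11.23) and Ccl11 (6.21 and 4.14). Their part in these differences was not tested.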

How the results depend on the processing

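The 6 probe sets past the study's thresholds became 464 with the SAM-type statistic, 11 with array weights and 0 without dim probe sets, and ranged from 1 to 172 when 1 array was left out. With the 4 GFP arrays alone it was 9, with Tnfrsf11b and Mbnl3 at an adjusted p of 0.301 (limma) and Gata2 at 0.378. The count of 0 under 0.05 became 22 with the SAM-type statistic and 1 with the trended and robust prior, and ranged from 0 to 3 when 1 array was left out. The interaction's 180 became 292 with array weights, and ranged from 0 to 2953 when 1 array was left out. Its count of 0 under 0.05 became 4 with the trended and robust prior, 2 with array weights and 3 without _s_at and _x_at probe sets, and ranged from 0 to 206 when 1 array was left out. The 740 separated genes ranged from 801 to 1366 when 1 array was left out, an alternative chosen after seeing the data. Of single genes, 9 changed sign when 1 array was left out, with log2 differences from -0.1992 to 0.1037 for Ccl2, -0.4777 to 0.02516 for Ccl7, -0.03058 to 2.153 for Tnfsf11, -0.07015 to 0.2801 for Mcm7, -0.1017 to 1.694 for Clu, -0.1037 to 0.04693 for Ccna2, -1.135 to 0.2366 for Csf1r, -2.023 to 0.0433 for Lyz2 and -0.6625 to 0.001546 for Sfrp2. List medians changed sign in at least 1 alternative for 19 of 43 lists, and 38 recomputed medians had the other sign. By more than the spread between replicates 74 recomputed medians moved, while 225 did not. Many single genes were named for their differences, so their stability is not set against that of the lists. The causes were not tested.

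With the replicate number as a block, 0 probe sets passed in place of 6, and the interaction count was 190. The deviations of same-numbered arrays correlated at -0.03143 for GFP Naive with GFP Recurred, 0.1273 for GFP Naive with Cre Naive, 0.3069 for GFP Recurred with Cre Recurred and -0.255 for GFP Naive with Cre Recurred. These correlations run over all probe sets and differ in sign, and the labels name nothing shared by a number, so the main fit did not pair the samples. Single genes went both ways on naive replicates 1 and 2. Icam1 gave 8.33 and 4.52 with GFP and 7.81 and 3.83 with Cre, whereas Pax3 gave 6.43 and 8.54, then 7.91 and 5.40. Whether same-numbered cultures share a preparation was not tested.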
